A study of Mus musculus with 28 samples.

Results

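Troponins and tropomyosins are the regulatory proteins of the sarcomere's thin filament, and the 10 mouse genes described here encode the striated muscle forms of the fast and the slow fiber. They were chosen by name as members of these families: *Tnni1* and *Tnni2* for troponin I, *Tnnc1* and *Tnnc2* for troponin C, *Tnnt1*, *Tnnt2* and *Tnnt3* for troponin T, and *Tpm1*, *Tpm2* and *Tpm3* for tropomyosin. All 10 were found by symbol, through their Ensembl identifiers, among the 55416 genes counted in one cohort and the 55359 counted in the other, and all 10 passed the filter on low counts in both (15439 and 14841 genes tested). RNA-seq counts of polyadenylated RNA from the tibialis anterior (TA) muscle came from 28 mice in 7 groups of 4, each mouse 1 library. The mice were 8 weeks old and of the C57BL/6N strain. The Dnm2 cohort held WT mice on placebo, WT mice on tamoxifen, and *Dnm2* S619L/+ mice on each diet. The Bin1 cohort held WT mice on placebo, and *Bin1* mck-/- mice on placebo or tamoxifen. The *Dnm2* allele is a heterozygous knock-in of S619L, so every cell carries it beside a normal copy. *Bin1* was deleted in muscle only (mck-/-), so other cells of the tissue kept the gene. No WT mice on tamoxifen were sequenced in the Bin1 cohort. The cohorts differed in library protocol, with 300 ng of RNA and 2 minutes of fragmentation in one, and 350 ng and 8 minutes in the other, so comparisons were made within a cohort.

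Tropomyosin is a coiled coil that lies along the actin filament and covers the sites where myosin binds. Troponin sits on it as a complex: troponin C binds calcium, troponin I holds the filament in the inhibited state at rest, and troponin T anchors both to tropomyosin. Fast and slow fibers use different genes for each subunit, and the mouse TA is a muscle of mostly fast fibers, so the slow genes are read there against a large excess of the fast ones.

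Each mouse of the Dnm2 cohort had 15586333 to 109710886 reads on genes, and each mouse of the Bin1 cohort 24671835 to 35136327. Levels are given as CPM, counts of a gene scaled to a common library size, with TMM factors that adjust library sizes on the assumption that most genes do not differ between mice. Statements that groups overlap, or that mice lie above or below others, use these TMM levels, except for ratios. Markers of the labelled tissue were present in every mouse: the summed level of 5 fast skeletal muscle markers (*Ckm*, *Acta1*, *Myh4*, *Mylpf*, *Pvalb*) was 53420 to 137302 CPM over the 28 mice, with no marker at 0. The sum of 5 heart markers (*Myh6*, *Nppa*, *Tnni3*, *Myl7*, *Ryr2*), a tissue that shares *Tnnc1* and *Tnnt2* with slow or immature muscle, was 3.21 to 14.0 CPM, with up to 3 of the 5 at 0 in a mouse. *Bin1* was at 521 to 555 CPM in WT mice of its cohort, at 51.6 to 62.0 CPM in knockout placebo and at 36.0 to 49.5 CPM in knockout tamoxifen mice. *Dnm2* was at 57.1 to 82.4 CPM in all 28 mice, and gene counts do not show a point mutation.

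Several libraries stood apart in ways the members have to be read against. The sum of 5 bone markers (*Ibsp*, *Bglap*, *Sp7*, *Dmp1*, *Mmp13*) was 1630.2, 1851, 778 and 859 CPM in the 4 WT tamoxifen mice and 561, 1259, 1392 and 17.95 CPM in the 4 S619L/+ tamoxifen mice, most of it *Mmp13*, and no marker was at 0. In WT and S619L/+ placebo mice it was at most 1.99 and 1.95 CPM, with up to 2 of 5 at 0. All 5 bone markers were called higher on tamoxifen in both genotypes, and so were 5 of 5 fibroblast markers in WT and 3 of 5 in S619L/+. Beside these, 27.7% of all genes were called in WT and 8.26% in S619L/+. In the Bin1 cohort the bone sum was 1.70, 493, 0.194 and 0.0365 CPM in the knockout tamoxifen mice and at most 1.83 CPM in the others, with up to 5 of 5 at 0 in a WT mouse, so 1 mouse, knockout tamoxifen replicate 2, carried this signal. Mitochondrially encoded genes took 19.6 to 25.7% of the reads in WT placebo mice of the Dnm2 cohort and 13.6 to 19.0% in its other groups, and the TMM factors were 0.812 to 0.8997 in those WT mice and 0.963 to 1.16 in the rest. With library size alone in place of TMM, the median of all genes shifts to 0.29 (log2) for S619L/+ placebo against WT placebo, 0.24 for WT tamoxifen against WT placebo, 0.36 for S619L/+ tamoxifen against WT placebo, −0.21 for the interaction, 0.14 for knockout placebo against WT and −0.16 for tamoxifen against placebo in the knockout. *Xist*, a transcript of the inactive X, was at 124 to 182 CPM in 10 and at most 0.966 CPM in 6 of the 16 mice of the Dnm2 cohort (high in 2 of 4 WT placebo, 2 of 4 WT tamoxifen, 2 of 4 S619L/+ placebo and 4 of 4 S619L/+ tamoxifen mice), and at 70.8 to 115 CPM in all 12 of the Bin1 cohort. Sex is not in the labels. The part of bone or fibroblast RNA, of mitochondrial reads and of sex in the members' values was not tested, except where a value with or without them is given.

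The fast genes were among the most read of the library and the slow genes were rare. The 10 members took 4.33 to 5.97% of the reads in the Dnm2 cohort and 4.48 to 8.06% in the Bin1 cohort. Per kilobase of merged exons (lengths from the GENCODE M21 annotation of GRCm38), group mean levels ran from 8789 to 13477 CPM per kb for *Tnnt3*, 6677 to 12500.4 for *Tnnc2*, 3738 to 6403 for *Tnni2*, 2691 to 3879 for *Tpm2* and 1253 to 2510 for *Tpm1*. The slow and cardiac forms ran from 3.84 to 15.7 CPM per kb for *Tnnt1*, 3.24 to 15.2 for *Tnnc1*, 0.726 to 8.57 for *Tnni1*, 4.12 to 5.47 for *Tpm3* and 0.398 to 1.14 for *Tnnt2*. The ranges of *Tnnt3* and *Tnnc2* overlap, as do those of *Tnni2* and *Tpm2*, and the range of *Tnni1* overlaps that of each of the other slow and cardiac forms, while each of the former 5 genes lies above each of the latter 5 in all 7 groups. The smallest count behind any value was 34 reads, for *Tnni1* in 1 mouse.

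In S619L/+ placebo against WT placebo, 4 of 10 members were called higher (*Tnni1*, *Tnnc1*, *Tnnt1*, *Tnnt2*) and 1 lower (*Tpm1*), where a call is an edgeR p under 0.05 after adjustment over all genes tested. Over all genes, 12.1% were called higher and 9.81% lower. The 4 called higher are all of the slow or cardiac troponin genes among the 10 members, and the median over all genes was 0.02 (log2). Without S619L/+ placebo replicate 1, WT placebo replicate 2 or WT placebo replicate 3, the count was 3, and *Tnni1*, *Tnnc1* and *Tnnt1* were the 3 in each case. Calls over all genes also fell, to 2879, 2034 and 2299 in that order, against 3383 of 15439 in the main fit. With library size alone, *Tpm3* was also called higher (adjusted p 0.0201) and *Tpm1* was not called (adjusted p 0.0951). That scaling called 4806 of all 15439 genes higher and 470 lower.

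Tamoxifen against placebo in WT gave 2 of 10 members called lower (*Tnnc2* and *Tpm2*) and 0 called higher, beside 11.9% of all genes called lower. Library size alone gave neither of these 2 and 1 other call, *Tpm3* higher, beside 4409 of all 15439 genes called higher and 383 lower. The count was 4, with *Tnni2* and *Tnnt3* added, by DESeq2, with RLE factors, with the *Xist* covariate, with only the 2 groups fitted, and without S619L/+ placebo replicate 2 or 4, S619L/+ tamoxifen replicate 4 or WT placebo replicate 4. It was 1, *Tpm2*, without WT placebo replicate 1, 2 or 3 or WT tamoxifen replicate 1, 3 or 4. Over all genes, 1833 of 15439 were called lower in the main fit, 1944 with RLE factors and 2061 with the *Xist* covariate. With only the 2 groups fitted, 1656 of 14979 were. Without WT placebo replicates 1, 2 and 3, the genes called lower were 1486, 1071 and 1172. In S619L/+, tamoxifen against placebo gave 0 of 10 calls with edgeR, beside 8.26% of all genes. At an unadjusted p under 0.05 there was 1 member (*Tnnc2*, beside 25.4% of all genes), and with DESeq2 there were 0 (10.9%). The test of whether tamoxifen acted differently in the 2 genotypes, the interaction, gave 0 of 10 with edgeR, beside 0.259% of all genes, 1 at an unadjusted p under 0.05 (*Tpm2*, beside 13.5%) and 0 with DESeq2 (1.93%).

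S619L/+ tamoxifen mice differed from WT placebo mice in 5 of 10 members, 1 higher (*Tnni1*, beside 15.8% of all genes) and 4 lower (*Tnni2*, *Tnnc2*, *Tnnt3* and *Tpm1*, beside 13.1%). Library size alone also gave 5 calls but turned the split to 4 higher (*Tnni1*, *Tnnc1*, *Tnnt1* and *Tpm3*) and 1 lower (*Tnnc2*), so only *Tnni1* and *Tnnc2* were called in both. These stand beside 6119 of all 15439 genes called higher and 445 lower with that scaling. With the *Xist* class as a covariate the count was 2, again *Tnni1* and *Tnnc2*, beside 3267 of all 15439 genes called, against 4461 in the main fit. The same 2 were called without S619L/+ tamoxifen replicate 2 or 3, and without WT placebo replicate 2 or 3. Calls over all genes were 3176, 2954, 3005 and 3202 in these fits, in that order. Against WT mice on the same diet, S619L/+ tamoxifen mice had 1 member called, *Tnni1* higher, beside 2.18% of all genes called higher.

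In the Bin1 cohort no member passed. Knockout against WT on placebo gave 0 of 10 calls with edgeR beside 2.61% of all genes, with 6 members at an unadjusted p under 0.05 (20.2% of all genes) and 4 called by DESeq2 (*Tnni1*, *Tnnt1*, *Tnnt2* and *Tpm1*, beside 7.23%). Tamoxifen against placebo in the knockout gave 0 of 10 beside 3.13% of all genes, with 5 at an unadjusted p under 0.05 (20.7% of all genes) and 4 called by DESeq2 (*Tnni2*, *Tnnc2*, *Tnnt3* and *Tpm1*, beside 7.90%). Without knockout tamoxifen replicate 2, the mouse with the bone markers, edgeR called the same 4 genes higher on tamoxifen, beside 8.30% of all genes called in that fit. Knockout tamoxifen against WT placebo gave 0 of 10 beside 0.849% of all genes, with 1 at an unadjusted p under 0.05 (*Tpm3*, beside 14.9%) and 0 by DESeq2 (3.10% of all genes). Comparisons within a cohort share mice, the WT placebo mice above all, so their counts are not independent.

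Troponin I is the inhibitory subunit, and *Tnni1* encodes its slow form. The 4 WT placebo mice of the Dnm2 cohort had *Tnni1* at 3.46, 1.07, 2.69 and 4.31 CPM, and the 4 S619L/+ placebo mice at 24.2, 67.2, 6.24 and 20.6 CPM. The groups do not overlap: the lowest S619L/+ mouse, replicate 3, lies above the highest WT mouse, and replicate 2 is the highest of the 16. The difference was a log2 fold change of 3.33 (SE 0.67, adjusted p 0.00335), a 10.1-fold rise, called in all 9 alternative settings and without any 1 of the 16 mice. Without S619L/+ placebo replicate 2 the log2 fold change was 2.55. In bulk tissue, fewer cells of a type and less RNA per cell cannot be told apart, and the same holds for more slow fibers and more *Tnni1* per fiber. Treated WT mice had *Tnni1* at 3.52, 1.29, 2.40 and 3.24 CPM and treated S619L/+ mice at 16.2, 7.97, 7.90 and 33.7 CPM. The 4 treated S619L/+ mice again lie above all 4 treated WT mice and above all 4 WT placebo mice. Against WT placebo the log2 fold change of 2.49 (SE 0.66, adjusted p 0.0114) was called in all 9 settings and without any 1 mouse, and was 1.87 without S619L/+ tamoxifen replicate 4. Against WT tamoxifen the log2 fold change of 2.65 (SE 0.66, adjusted p 0.0457) was close to the threshold.

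That last call of *Tnni1*, against WT tamoxifen, was lost with the *Xist* covariate (2.65, adjusted p 0.0749) and with a block for replicate number (2.51, adjusted p 0.0865). It was also lost with no filter on low counts (2.67, adjusted p 0.150), with only the 2 groups fitted (2.67, adjusted p 0.0513) and without any 1 of 10 mice. These were S619L/+ placebo replicates 1 and 4 (adjusted p 0.0552 and 0.0587), S619L/+ tamoxifen replicates 1 and 4 (0.110 and 0.137), WT placebo replicates 1 and 3 (0.0601 and 0.0641) and all 4 WT tamoxifen mice (0.0673 to 0.146). The log2 fold change stayed between 2.02 and 2.84 in those 10 fits. The treatment gave −0.84 (adjusted p 0.415) in S619L/+ and −0.16 (adjusted p 0.882) in WT, where library size alone turns the sign (0.10), and the interaction was −0.68 (adjusted p 0.804). Without S619L/+ placebo replicate 2 the treatment effect in S619L/+ was −0.05 and the interaction 0.10, of the opposite sign. In WT, too, leaving out 1 mouse turned the sign (−0.43 to 0.11).

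*Tnni1* in the Bin1 cohort was at 8.86, 3.90, 5.44 and 4.19 CPM in WT placebo, 16.7, 42.3, 7.75 and 56.6 CPM in knockout placebo and 3.61, 6.76, 21.6 and 15.1 CPM in knockout tamoxifen mice. Knockout placebo replicates 4 and 2 are the highest of the cohort, and replicate 3 lies within the WT range. Knockout against WT gave a log2 fold change of 2.46 (SE 0.72, adjusted p 0.0998), not called. It was called by edgeR without knockout placebo replicate 3 (2.77, adjusted p 0.0456). Knockout tamoxifen mice overlap both other groups, with −1.39 (adjusted p 0.286) against knockout placebo and 1.07 (adjusted p 0.518) against WT.

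*Tnni2* encodes the fast form of troponin I and lies near *Tnnt3* on chromosome 7. Levels of *Tnni2* in the Dnm2 cohort were 7946, 8035, 8452 and 6274 CPM in the 4 WT placebo mice and 5850.2, 8447, 6863 and 5364 CPM in the 4 S619L/+ placebo mice. The groups overlap, with S619L/+ replicate 2 the second highest of these 8 mice. The log2 fold change of −0.21 (adjusted p 0.332) was not called and is 0.05 with library size alone. With tamoxifen, *Tnni2* was at 5744, 5796, 5787 and 5715 CPM in WT and 5617, 4726, 5059 and 6982 CPM in S619L/+ mice. The 4 WT tamoxifen mice lie within a narrow band below all WT placebo mice, with −0.41 (adjusted p 0.0532). Library size alone gave −0.13 (adjusted p 0.394), and with it these groups overlap. The TMM value was called with the *Xist* covariate (−0.41, adjusted p 0.0363) and without S619L/+ placebo replicate 2 or 4, S619L/+ tamoxifen replicate 4 or WT placebo replicate 4 (adjusted p 0.0291 to 0.0422). S619L/+ tamoxifen against WT placebo gave a log2 fold change of −0.46 (SE 0.15, adjusted p 0.0347). The call was lost with library size alone (−0.11), with the *Xist* covariate (−0.34) and with a block for replicate number (−0.45, adjusted p 0.0665). It was also lost with only the 2 groups fitted (−0.42, adjusted p 0.0549) and without 7 of the 16 mice. Those mice were S619L/+ tamoxifen replicates 1, 2 and 3, WT placebo replicates 1, 2 and 3 and WT tamoxifen replicate 4, with adjusted p of 0.0515 to 0.117.

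Mice of the Bin1 cohort had *Tnni2* at 6890.1, 8348, 8055 and 8831 CPM in WT placebo, 7317, 6717, 7089 and 5473 CPM in knockout placebo and 9111, 7074, 9495 and 12660.2 CPM in knockout tamoxifen. Knockout tamoxifen mice hold the 3 highest values of the cohort, and replicate 2 lies within the knockout placebo range. Tamoxifen against placebo gave 0.53 (adjusted p 0.1001), and 0.65 (adjusted p 0.0251) without that mouse. Knockout placebo against WT gave −0.27 (adjusted p 0.399). With library size alone these differences were 0.35 and −0.15.

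Troponin C is the calcium sensor, and *Tnnc1* encodes the form of slow fibers and heart. In the Dnm2 cohort, *Tnnc1* was at 5.32, 1.78, 2.92 and 4.17 CPM in the 4 WT placebo mice and at 18.1, 30.1, 4.89 and 10.0 CPM in the 4 S619L/+ placebo mice. The groups overlap by 1 mouse on each side, S619L/+ replicate 3 and WT replicate 1. A log2 fold change of 2.12 (SE 0.52, adjusted p 0.0102) was called in all 9 settings and without any 1 of the 16 mice. On tamoxifen, it was at 5.53, 2.25, 2.16 and 3.55 CPM in WT and at 11.9, 5.34, 4.29 and 9.72 CPM in S619L/+. S619L/+ tamoxifen mice overlap WT tamoxifen mice, with 1.198 (adjusted p 0.230), and WT placebo mice, with 1.11 (adjusted p 0.113), the latter called with library size alone (1.43, adjusted p 0.0349). Treated against placebo mice gave −1.01 (adjusted p 0.220) in S619L/+ and −0.08 (adjusted p 0.921) in WT, the latter 0.18 with library size alone, and the interaction was −0.93 (adjusted p 0.620). Without S619L/+ placebo replicate 2, the effect in S619L/+ was −0.50 and the interaction −0.42. In the Bin1 cohort, *Tnnc1* was at 9.17, 3.16, 4.06 and 5.33 CPM in WT placebo, 9.37, 14.7, 4.30 and 20.6 CPM in knockout placebo and 7.71, 9.09, 21.4 and 8.91 CPM in knockout tamoxifen mice. WT replicate 5 was the highest of its group for *Tnnc1*, as for *Tnni1*, and all 3 groups overlap. Knockout against WT gave 1.17 (adjusted p 0.235) on placebo and tamoxifen against placebo gave −0.06 (adjusted p 0.961). *Tnnc1* overlaps *Nisch* on the opposite strand, which was at 82.4 to 144 CPM. The libraries were stranded, but whether strand was used in counting is not given, so a share of either gene's reads is uncertain.

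*Tnnc2* encodes the fast troponin C. The 4 WT placebo mice of the Dnm2 cohort had *Tnnc2* at 9159, 8489, 9138 and 6561 CPM, and the 4 S619L/+ placebo mice at 5835, 8256, 6692 and 5834 CPM. WT placebo replicate 4 is the 1 WT mouse that lies below any S619L/+ mouse, and the log2 fold change of −0.33 (SE 0.15, adjusted p 0.124) was not called and is −0.06 with library size alone. Treated WT mice had *Tnnc2* at 5812, 6646, 5371 and 5848 CPM and treated S619L/+ mice at 5461, 4629.7, 4835 and 6439.6 CPM. All 4 WT tamoxifen mice except replicate 2 lie below all WT placebo mice, and replicate 2 is above WT placebo replicate 4 by a small margin. Their log2 fold change of −0.49 (SE 0.15, adjusted p 0.0219) was called, but not with library size alone (−0.21, adjusted p 0.190). It was also lost without WT placebo replicate 1, 2 or 3 or WT tamoxifen replicate 1, 3 or 4 (adjusted p 0.0505 to 0.0745). S619L/+ tamoxifen mice all lie below WT placebo mice, and the log2 fold change of −0.64 (SE 0.15, adjusted p 0.00532) was called in all 9 settings and without any 1 mouse, though library size alone gave −0.296 (adjusted p 0.0498). With library size alone these groups overlap. The interaction was 0.18 (adjusted p 0.778), and −0.03 with library size alone.

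*Tnnc2* in the Bin1 cohort was at 7186, 8836, 8661 and 9539.8 CPM in WT placebo, 6818, 6480.3, 7464 and 5879 CPM in knockout placebo and 9543, 6843, 10578 and 13036 CPM in knockout tamoxifen mice. Knockout tamoxifen replicates 1, 3 and 4 lie above all knockout placebo mice, and replicate 2 does not. The treatment gave a log2 fold change of 0.59 (SE 0.18, adjusted p 0.0820), which was 0.73 (adjusted p 0.0136) without replicate 2. Knockout placebo against WT gave −0.36 (adjusted p 0.268), or −0.23 with library size alone. *Tnnc2* overlaps *Ube2c* on the opposite strand, at 1.95 to 55.8 CPM.

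Troponin T binds the complex to tropomyosin, and *Tnnt1* encodes its slow skeletal form. Levels of *Tnnt1* in the Dnm2 cohort were 12.4, 4.47, 7.90 and 11.1 CPM in the 4 WT placebo mice and 43.8, 64.7, 12.1 and 17.5 CPM in the 4 S619L/+ placebo mice. S619L/+ replicate 3 lies between the highest WT mice and the groups overlap there, while the other 3 S619L/+ mice are above all WT mice. S619L/+ against WT gave a log2 fold change of 1.93 (SE 0.45, adjusted p 0.00794), called in all 9 settings and without any 1 of the 16 mice. With tamoxifen, *Tnnt1* was at 12.0, 7.07, 7.90 and 6.86 CPM in WT and 23.9, 14.6, 14.4 and 23.3 CPM in S619L/+ mice. All 4 S619L/+ tamoxifen mice lie above all WT tamoxifen and WT placebo mice, with 1.17 (adjusted p 0.183) and 1.07 (adjusted p 0.0815), neither called. The latter was called with library size alone (1.39, adjusted p 0.0207), by DESeq2 (1.08, adjusted p 0.0402), with only the 2 groups fitted (1.11, adjusted p 0.0327) and without S619L/+ placebo replicate 2 or 3 (adjusted p 0.0477 and 0.0468). The former was called with only the 2 groups fitted (1.19, adjusted p 0.0421). Treatment effects were −0.86 (adjusted p 0.236) in S619L/+ and −0.09 (adjusted p 0.899) in WT, the latter 0.18 with library size alone, and the interaction was −0.77 (adjusted p 0.642). Leaving out S619L/+ placebo replicate 2 gave −0.37 in S619L/+ and −0.27 for the interaction. Mice of the Bin1 cohort had *Tnnt1* at 11.0, 8.45, 9.40 and 10.4 CPM in WT placebo, 13.6, 24.5, 17.5 and 54.0 CPM in knockout placebo and 8.23, 14.3, 34.3 and 14.4 CPM in knockout tamoxifen. All 4 knockout placebo mice lie above all 4 WT mice, and replicate 4 is the highest of the cohort. Knockout against WT gave a log2 fold change of 1.48 (SE 0.50, adjusted p 0.135), not called, and 0.904 without replicate 4. Knockout tamoxifen mice overlap both groups, with −0.62 (adjusted p 0.507) against knockout placebo, or −0.05 without that mouse.

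*Tnnt2* encodes the cardiac troponin T, which immature skeletal muscle also makes, and lies near *Tnni1* on chromosome 1. In the Dnm2 cohort, *Tnnt2* was at 5.12, 2.77, 3.48 and 4.13 CPM in the 4 WT placebo mice and at 10.9, 13.1, 4.57 and 6.57 CPM in the 4 S619L/+ placebo mice. S619L/+ replicate 3 lies within the WT range and the other 3 lie above it. The difference, a log2 fold change of 1.17 (SE 0.33, adjusted p 0.0210), was called in all 9 settings. The call was lost without S619L/+ placebo replicate 1 (1.05, adjusted p 0.0557) or 2 (0.92, 0.0763), or WT placebo replicate 2 (1.06, 0.0699) or 3 (1.15, 0.0540). On tamoxifen, it was at 4.30, 2.85, 2.87 and 2.31 CPM in WT and at 6.53, 4.78, 3.13 and 7.68 CPM in S619L/+. The treated groups overlap, with 0.84 (adjusted p 0.199), and tamoxifen against placebo gave −0.67 (adjusted p 0.217) in S619L/+ and −0.33 (adjusted p 0.485) in WT, the latter −0.06 with library size alone. The interaction was −0.33 (adjusted p 0.820), or −0.54 with library size alone.

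In the Bin1 cohort, *Tnnt2* was at 3.21, 3.65, 5.05 and 3.10 CPM in WT placebo, 6.06, 8.69, 4.84 and 9.02 CPM in knockout placebo and 3.57, 3.33, 3.57 and 6.54 CPM in knockout tamoxifen mice. Knockout placebo replicate 3 lies below the highest WT mouse and the other 3 lie above all WT mice. Knockout against WT gave a log2 fold change of 0.93 (SE 0.27, adjusted p 0.0693), not called. It was called by DESeq2 (adjusted p 0.0186), with no filter on low counts (0.92, adjusted p 0.0347), with only the 2 groups fitted (0.93, adjusted p 0.0228), without knockout placebo replicate 3 (1.07, adjusted p 0.0333) and without knockout tamoxifen replicate 4 (0.93, adjusted p 0.0339). Knockout tamoxifen replicates 1, 2 and 3 are at WT levels and replicate 4 stands apart from them. Its treatment effect in the knockout was −0.75 (adjusted p 0.127), and −1.03 (adjusted p 0.0498) without replicate 4.

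*Tnnt3* encodes the fast troponin T. The 4 WT placebo mice of the Dnm2 cohort had *Tnnt3* at 20985, 21396, 21356 and 17100.2 CPM, and the 4 S619L/+ placebo mice at 13470.2, 19382, 16556 and 12961 CPM. WT placebo replicates 1, 2 and 3 lie above all S619L/+ mice, and replicate 4 lies below S619L/+ replicate 2. A log2 fold change of −0.37 (SE 0.14, adjusted p 0.0702) between these groups was not called and is −0.11 (adjusted p 0.392) with library size alone. It was called by DESeq2 (−0.38, adjusted p 0.0324), with the *Xist* covariate (−0.38, adjusted p 0.0420) and without WT placebo replicate 4, S619L/+ placebo replicate 2 or S619L/+ tamoxifen replicate 4 (adjusted p 0.0287 to 0.0481). Treated WT mice had *Tnnt3* at 15542, 15443, 15004 and 15763 CPM and treated S619L/+ mice at 14260.2, 12495, 13163 and 17526 CPM. All 4 WT tamoxifen mice lie below all WT placebo mice, with −0.39 (adjusted p 0.0527), or −0.102 (adjusted p 0.454) with library size alone, where these groups overlap. With TMM it was called with the *Xist* covariate (−0.38, adjusted p 0.0345) and without S619L/+ placebo replicate 2 or 4, S619L/+ tamoxifen replicate 4 or WT placebo replicate 4 (adjusted p 0.0296 to 0.0434). S619L/+ tamoxifen against WT placebo gave a log2 fold change of −0.49 (SE 0.14, adjusted p 0.0174), called but lost with library size alone (−0.15), with the *Xist* covariate (−0.39, adjusted p 0.0556) and without S619L/+ tamoxifen replicate 2 or 3 or WT placebo replicate 2 or 3 (adjusted p 0.0572 to 0.0631). The interaction was 0.27 (adjusted p 0.604), or 0.07 with library size alone.

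*Tnnt3* in the Bin1 cohort was at 16463, 19823, 18093 and 19115 CPM in WT placebo, 14685, 13890.3, 15576 and 11502 CPM in knockout placebo and 18777, 15862, 23273 and 27422 CPM in knockout tamoxifen mice. Knockout placebo mice all lie below WT mice, and knockout tamoxifen mice all lie above knockout placebo mice. Neither difference was called, with −0.40 (adjusted p 0.204) and 0.62 (adjusted p 0.0624). The second was called with no filter on low counts (0.61, adjusted p 0.0420). Without knockout tamoxifen replicate 2 it was 0.74 (adjusted p 0.0163). *Tnnt3* overlaps *Prr33* on the opposite strand, at 136 to 305 CPM.

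**Figure D1:**
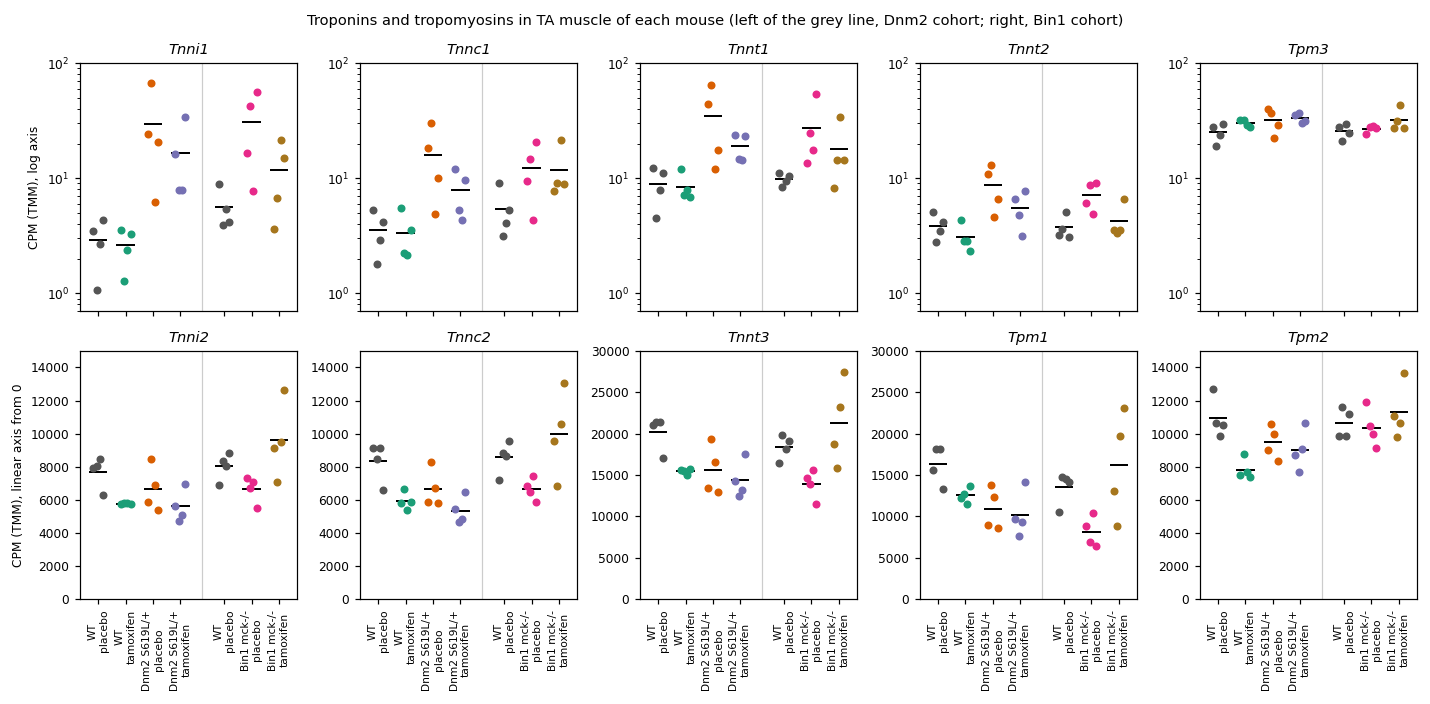
CPM of the 10 genes in each of 28 mice by group, the slow and cardiac forms on a log axis (top) and the fast forms and Tpm2 on a linear axis from 0 (bottom), with points for mice and bars for group means. Tnni1 of the 4 S619L/+ placebo mice lies at 6.24 to 67.2 CPM, above the 1.07 to 4.31 CPM of the 4 WT placebo mice.

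Tropomyosin genes each make many isoforms, which gene counts do not separate, and *Tpm1* encodes the main form of fast fibers. Levels of *Tpm1* in the Dnm2 cohort were 15564, 18153, 18085 and 13304 CPM in the 4 WT placebo mice and 8900.2, 13839, 12376 and 8623 CPM in the 4 S619L/+ placebo mice. S619L/+ replicate 2 lies above WT replicate 4 and the other 3 S619L/+ mice lie below all WT mice. Against WT, the log2 fold change of −0.57 (SE 0.19, adjusted p 0.0417) was called but not with library size alone (−0.31, adjusted p 0.0951). Nor was it called with a block for replicate number (−0.58, adjusted p 0.0671). The call was also lost without any 1 of 8 mice, with log2 fold changes from −0.60 to −0.48 and adjusted p of 0.0506 to 0.132. These were S619L/+ placebo replicates 1 and 4, S619L/+ tamoxifen replicate 1, WT placebo replicates 1, 2 and 3, and WT tamoxifen replicates 2 and 4. With tamoxifen, *Tpm1* was at 12184, 12679, 11545 and 13681 CPM in WT and 9699, 7657, 9282 and 14203 CPM in S619L/+ mice. S619L/+ tamoxifen replicate 4 is the highest of the 8 treated mice and the other 3 are the lowest, with −0.29 (adjusted p 0.436). Against WT placebo the log2 fold change of −0.67 (SE 0.19, adjusted p 0.0159) was called but lost with library size alone (−0.33, adjusted p 0.0630), with the *Xist* covariate (−0.51, adjusted p 0.0567) and without S619L/+ tamoxifen replicate 2 or 3 or WT placebo replicate 2 or 3 (adjusted p 0.0518 to 0.0588). The treatment effect was −0.38 (adjusted p 0.149) in WT, or −0.09 with library size alone, and −0.099 (adjusted p 0.794) in S619L/+. The interaction was 0.28 (adjusted p 0.713), or 0.065 with library size alone and 0.44 with the *Xist* covariate.

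Mice of the Bin1 cohort had *Tpm1* at 10466, 14805, 14518 and 14161 CPM in WT placebo, 8869, 6887, 10396 and 6361 CPM in knockout placebo and 13052, 8783, 19751 and 23049.8 CPM in knockout tamoxifen. All knockout placebo mice lie below all WT mice, replicate 3 by a small margin and not with library size alone. Knockout tamoxifen replicates 3 and 4 are the highest of the cohort. Knockout placebo against WT gave −0.73 (adjusted p 0.131), called with only the 2 groups fitted (−0.73, adjusted p 0.0211) and without knockout tamoxifen replicate 2 (−0.74, adjusted p 0.0464). Tamoxifen against placebo gave a log2 fold change of 0.99 (SE 0.26, adjusted p 0.0518), just short of a call. It was called with the study's filter rule applied within the cohort (adjusted p 0.0497). It was also called without knockout tamoxifen replicate 2 (1.198, adjusted p 0.00679), knockout tamoxifen replicate 1 (1.08, adjusted p 0.0464) or knockout placebo replicate 3 (1.13, adjusted p 0.0427).

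*Tpm2* encodes beta-tropomyosin, which fast and slow fibers both use. In the Dnm2 cohort, *Tpm2* was at 12695, 10652, 9830.2 and 10527 CPM in the 4 WT placebo mice and at 9023, 10573, 9952 and 8317 CPM in the 4 S619L/+ placebo mice. The groups overlap, with −0.21 (adjusted p 0.242), or 0.05 with library size alone. On tamoxifen, it was at 7469, 8739, 7699 and 7404 CPM in WT and at 8685, 7689.9, 9072 and 10624 CPM in S619L/+. All 4 WT tamoxifen mice lie below all 4 WT placebo mice, but these groups overlap with library size alone. Their log2 fold change of −0.48 (SE 0.12, adjusted p 0.00988) was called without any 1 of the 16 mice and in 8 of 9 settings, and lost with library size alone (−0.20, adjusted p 0.153). In S619L/+ the treated and placebo mice overlap, with −0.07 (adjusted p 0.772), and the interaction of 0.41 (adjusted p 0.329) was not called. With library size alone these values were 0.01 and 0.21. Bone marker sums were 778 to 1851 CPM in the WT tamoxifen mice and 17.95 to 1392 CPM in the S619L/+ tamoxifen mice, and their part in the *Tpm2* values was not tested.

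In the Bin1 cohort, *Tpm2* was at 9869, 11606, 9853 and 11193 CPM in WT placebo, 11908, 10433, 9978 and 9119 CPM in knockout placebo and 11051, 9815, 10633 and 13636 CPM in knockout tamoxifen mice. The groups of the Bin1 cohort overlap, with −0.04 (adjusted p 0.917) for knockout against WT and 0.12 (adjusted p 0.666) for tamoxifen against placebo, and library size alone turns the sign of both (0.09 and −0.04).

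*Tpm3* encodes the slow fiber's tropomyosin, and cells other than muscle make short forms of it. The 4 WT placebo mice of the Dnm2 cohort had *Tpm3* at 27.9, 19.2, 23.9 and 29.3 CPM, and the 4 S619L/+ placebo mice at 40.2, 36.5, 22.5 and 29.1 CPM. The groups overlap, with 0.35 (adjusted p 0.122). That value was called with library size alone (0.62, adjusted p 0.0201) and without S619L/+ placebo replicate 3 (0.49, adjusted p 0.0222). Treated WT mice had *Tpm3* at 31.9, 32.1, 28.9 and 27.9 CPM and treated S619L/+ mice at 35.2, 36.7, 29.9 and 31.4 CPM. S619L/+ tamoxifen mice lie above all WT placebo mice, with 0.41 (adjusted p 0.0677), called with library size alone (0.76, adjusted p 0.00568), with only the 2 groups fitted (0.44, adjusted p 0.0407) and without WT placebo replicate 4 (0.49, adjusted p 0.0457) or S619L/+ placebo replicate 3 (0.41, adjusted p 0.0323). WT tamoxifen against WT placebo gave 0.27 (adjusted p 0.225), or 0.54 (adjusted p 0.0385) with library size alone. The interaction was −0.22 (adjusted p 0.741), or −0.40 with library size alone. *Tpm3* in the Bin1 cohort was at 27.8, 21.1, 29.3 and 24.9 CPM in WT placebo, 24.1, 27.9, 28.3 and 27.4 CPM in knockout placebo and 27.4, 31.2, 43.1 and 27.4 CPM in knockout tamoxifen mice. Knockout tamoxifen replicate 3 is the highest of the 28 mice and the groups otherwise overlap, with 0.06 (adjusted p 0.864) for knockout against WT and 0.26 (adjusted p 0.319) for tamoxifen against placebo, the latter 0.09 with library size alone. A near copy, *Tpm3-rs7*, was at 0.0643 to 0.913 CPM.

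A ratio of slow to fast reads within a mouse does not depend on library size or its scaling. For troponin I, the log2 ratio of *Tnni1* to *Tnni2* reads was −11.16, −12.85, −11.60 and −10.50 in WT placebo mice and −7.91, −6.97, −10.10 and −8.02 in S619L/+ placebo mice. As shares of both genes' reads, *Tnni1* held 0.0436, 0.0134, 0.0318 and 0.0686% in those WT mice and 0.413, 0.790, 0.0909 and 0.383% in those S619L/+ mice. The groups do not overlap, and the share stayed under 1% in each of these mice. The highest share of any mouse was 1.02%, in knockout placebo replicate 4. The mean log2 ratio was 3.28 higher in S619L/+ (SE 0.82, 9.69-fold, higher in 4 of 4 mice, exact two-sided permutation p 0.0286, adjusted p 0.0831 over 32 tests). This p is the smallest that 4 mice against 4 can give. On tamoxifen the ratio was −10.67, −12.12, −11.22 and −10.78 in WT and −8.44, −9.21, −9.32 and −7.69 in S619L/+, again without overlap, and the difference was 2.53 (SE 0.50, exact p 0.0286). Tamoxifen against placebo shifted the mean by 0.33 in WT and by −0.41 in S619L/+ (exact p 0.629 for each), with overlap in both.

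The troponin I ratio of the Bin1 cohort was −9.60, −11.06, −10.53 and −11.04 in WT, −8.77, −7.31, −9.83 and −6.60 in knockout placebo and −11.29, −10.03, −8.78 and −9.71 in knockout tamoxifen mice. Knockout placebo replicate 3 lies within the WT range, and the other 3 lie above it. The difference from WT was 2.43 (SE 0.80, exact p 0.0571), and tamoxifen against placebo in the knockout gave −1.82 (SE 0.89, exact p 0.114).

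The troponin C ratio of *Tnnc1* to *Tnnc2* reads was −10.75, −12.21, −11.59 and −10.61 in WT placebo mice and −8.33, −8.10, −10.41 and −9.18 in S619L/+ placebo mice. These groups do not overlap, although their *Tnnc1* levels do. The difference was 2.28 (SE 0.64, exact p 0.0286). The ratio in treated mice was −10.04, −11.52, −11.26 and −10.68 for WT and −8.84, −9.76, −10.13 and −9.37 for S619L/+, which overlap, with a difference of 1.35 (exact p 0.0571). The Bin1 cohort had it at −9.61, −11.44, −11.05 and −10.80 in WT, −9.50, −8.78, −10.76 and −8.16 in knockout placebo and −10.27, −9.55, −8.95 and −10.51 in knockout tamoxifen mice. All 3 groups overlap, with 1.43 for knockout against WT (exact p 0.0571) and −0.52 for tamoxifen against placebo (exact p 0.486).

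The troponin T ratio of *Tnnt1* to *Tnnt3* reads was −10.73, −12.22, −11.39 and −10.58 in WT placebo mice and −8.26, −8.23, −10.41 and −9.53 in S619L/+ placebo mice, with no overlap. The difference was 2.12 (SE 0.65, exact p 0.0286). Treated WT mice were at −10.34, −11.09, −10.89 and −11.16 and treated S619L/+ mice at −9.22, −9.74, −9.83 and −9.55, also without overlap and with a difference of 1.28 (SE 0.23, exact p 0.0286). For the Bin1 cohort the ratio was −10.54, −11.19, −10.91 and −10.84 in WT, −10.07, −9.15, −9.80 and −7.73 in knockout placebo and −11.15, −10.11, −9.40 and −10.90 in knockout tamoxifen mice. Troponin T is 1 of the 2 pairs whose knockout placebo and WT mice do not overlap, with a difference of 1.68 (SE 0.54, exact p 0.0286), and tamoxifen against placebo gave −1.203 (exact p 0.114).

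The tropomyosin ratio of *Tpm3* to *Tpm1* reads spread less. It was −9.12, −9.88, −9.56 and −8.83 in WT placebo and −7.79, −8.57, −9.10 and −8.21 in S619L/+ placebo mice, which overlap by S619L/+ replicate 3, with a difference of 0.93 (SE 0.36, exact p 0.0571). Treated WT mice were at −8.58, −8.62, −8.64 and −8.93 and treated S619L/+ mice at −8.10, −7.70, −8.28 and −8.82. WT tamoxifen overlaps WT placebo by replicate 4 of each, and S619L/+ tamoxifen lies above all WT placebo mice, with differences of 0.66 (exact p 0.0571) and 1.12 (exact p 0.0286, no overlap). Bin1 cohort ratios were −8.56, −9.45, −8.95 and −9.15 in WT, −8.52, −7.95, −8.52 and −7.86 in knockout placebo and −8.89, −8.14, −8.84 and −9.72 in knockout tamoxifen mice. Knockout placebo lies above WT without overlap, by 0.81 (SE 0.26, exact p 0.0286), and knockout tamoxifen overlaps both.

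Of the 32 ratio tests, 11 reached the smallest exact p of 0.0286 and 0 passed 0.05 after adjustment over the 32 (lowest adjusted p 0.0831). The 11 fell on S619L/+ against WT on placebo (3 of 4 pairs), S619L/+ tamoxifen against WT placebo (4 of 4), S619L/+ against WT on tamoxifen (2 of 4) and knockout against WT on placebo (2 of 4). None fell on tamoxifen against placebo in WT, S619L/+ or knockout mice, or on knockout tamoxifen against WT. With 1 mouse left out, 8 of the 11 reached an exact p above 0.05 (0.0571, or 0.0857 for tropomyosin in knockout against WT), among them all 3 of S619L/+ against WT on placebo. The other 3 stayed at 0.0286, troponin I of S619L/+ tamoxifen mice against both WT groups and troponin T against WT placebo. Groups that do not overlap in full cannot overlap with a mouse left out, so that is no sign of stability. With so few mice the exact p moves in coarse steps. These p-values therefore say little on how stable the differences are. Pairs share mice and are not replicates of each other.

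**Figure D2:**
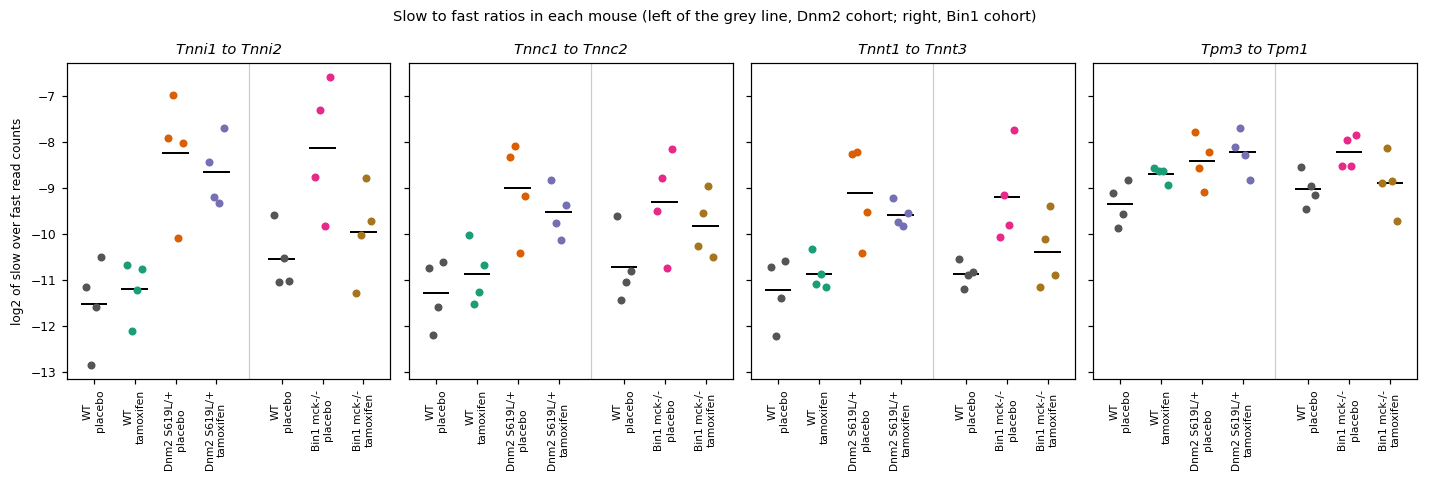
The log2 ratio of slow to fast reads in each of 28 mice for troponin I, troponin C, troponin T and tropomyosin, with points for mice and bars for group means. For troponin I the 4 S619L/+ placebo mice lie at −10.10 to −6.97, above the 4 WT placebo mice.

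Across mice, the slow and cardiac troponins varied together, less closely in the Bin1 cohort, and apart from the fast troponins and *Tpm1*. Over the 16 mice of the Dnm2 cohort, the 6 pairs among *Tnni1*, *Tnnc1*, *Tnnt1* and *Tnnt2* had a Pearson's r of log2 CPM from 0.893 to 0.971. Over the 12 mice of the Bin1 cohort the same pairs ran from 0.403 to 0.889. The 6 pairs among *Tnni2*, *Tnnc2*, *Tnnt3* and *Tpm1* ran from 0.853 to 0.954 and from 0.926 to 0.975. The 16 pairs between these sets ran from −0.42 to 0.18 in the Dnm2 cohort and from −0.44 to −0.21 in the Bin1 cohort. *Tpm3*, the slow tropomyosin, had r of 0.595 to 0.728 with the first set and −0.644 to −0.470 with the second in the Dnm2 cohort. In the Bin1 cohort it had −0.121 to 0.575 and 0.117 to 0.214, so it was not apart from the fast genes there. *Tpm2* had 0.563 to 0.765 and 0.625 to 0.810 with the second set in the Dnm2 and Bin1 cohorts. These values pool the groups of a cohort, whose mice share a protocol, and describe them only. In S619L/+ placebo, replicate 2 was the highest and replicate 3 the lowest for each of *Tnni1*, *Tnnc1*, *Tnnt1* and *Tnnt2*. In knockout placebo, replicate 4 was the highest for each of these 4 genes. In knockout tamoxifen, replicate 3 was the highest for *Tnni1*, *Tnnc1*, *Tnnt1* and *Tpm3*, and replicate 4 for *Tnnt2* and for the fast genes.

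Among the 10873 genes tested in both cohorts with a mean log2 CPM above 1, other than the 10 members, the 3 most like each member were ranked by the smaller of the 2 cohorts' r over 16 and 12 mice. For *Tnni1* they were *Msantd3* (0.873), *Cpd* (0.855) and *Il20rb* (0.851), and for *Tnnt1* *Msantd3* (0.787), *Hivep3* (0.774) and *Tmem41b* (0.769), which share *Msantd3*. *Tnnc1* was most like *Mlip* (0.815), *Vma21* (0.814) and *Il20rb* (0.784). *Tnnt2* was most like *Mcu* (0.856), *Klc1* (0.837) and *Sbk3* (0.821). Among the fast genes, *Tnni2* was most like *Pfdn6* (0.906), *Gstm5* (0.904) and *Cfap298* (0.904), and *Tnnc2* most like *Ddrgk1* (0.935), *Bccip* (0.935) and *Cwc15* (0.910). *Tnnt3* was most like *Capzb* (0.920), *B230118H07Rik* (0.893) and *Pfdn6* (0.889), and *Tpm1* most like *Capzb* (0.925), *Mybpc2* (0.907) and *Keap1* (0.903). *Capzb*, which encodes a subunit of the actin capping protein, is first of the listed genes for both, and *Mybpc2* encodes the fast myosin-binding protein C. *Tpm2* was most like *Pxmp2* (0.875), *Mrpl51* (0.826) and *Rp9* (0.816). The lowest values were those of *Tpm3*, most like *Myh7* (0.684), *Atp2a2* (0.668) and *Klhdc8b* (0.644), where *Myh7* encodes the slow myosin heavy chain and *Atp2a2* the slow calcium pump.

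Of the other slow fiber genes, some were called with the slow troponins and some against them. In S619L/+ against WT on placebo, 3 of 10 other slow fiber genes were called higher, *Myh7* (3.11), *Myl2* (2.03) and *Atp2a2* (0.83), and 2 lower, *Myl3* (−1.96) and *Pln* (−0.87) (log2 fold changes, list median 0.46 against 0.02 for all genes). *Myl3* encodes the slow and ventricular essential light chain, so it went the opposite way to *Tnni1* in the same mice. Of 12 fast fiber genes, 3 were called lower, *Myh2* (−1.81), *Mylk2* (−0.96) and *Myh4* (−0.75), and 0 higher (median −0.27). Of 14 other thin filament genes, *Klhl40* (1.71), *Cfl2* (0.61) and *Klhl41* (0.47) were called higher and 0 lower (median 0.00), so the actin, nebulin and tropomodulin genes that share the filament with the members were not called. Of 9 genes of developing and regenerating fibers, 5 were called higher, *Chrng* (3.26), *Myog* (2.85), *Ncam1* (2.38), *Myl4* (2.32) and *Chrna1* (1.14) (median 1.14). *Tnnt2*, the troponin of immature fibers, was called higher beside them. Of 20 regulators linked to fiber type, 4 were called higher, *Tead4* (1.72), *Rcan1* (1.298), *Nfatc2* (1.04) and *Hdac4* (0.93), and 4 lower, *Ppargc1a* (−1.59), *Eya1* (−0.68), *Sox6* (−0.50) and *Tbx15* (−0.43) (median −0.12). These counts stand beside 12.1% of all genes called higher and 9.81% lower.

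In WT, tamoxifen against placebo gave 10 of 65 context genes called over the 5 lists, beside 27.7% of all genes. They include 2 of 12 fast fiber genes lower, *Myoz1* (−0.52) and *Myh2* (−0.88) (median −0.43 against −0.04 for all genes), and 1 of 10 slow fiber genes higher, *Atp2a2* (0.76) (median −0.09). Of the 14 thin filament genes, *Tpm4* (0.76) was called higher, and *Lmod3* (−0.68) and *Actc1* (−1.57) lower (median −0.36). The developmental genes gave 2 higher, *Ncam1* (2.30) and *Myl4* (1.17), and 1 lower, *Chrna1* (−1.87) (median 0.01), and the regulators 1 higher, *Nfatc4* (1.82) (median −0.17). In S619L/+, where no member was called, tamoxifen against placebo gave *Myl3* (1.57) among the slow fiber genes (median −0.14 against −0.03 for all genes), 0 of 12 fast fiber genes (median −0.36), and *Tpm4* (0.81) higher with *Tmod1* (−0.45) and *Actc1* (−1.97) lower in the thin filament (median −0.29). *Myh8* (0.97) was called higher among the developmental genes (median −0.05) and *Rcan1* (−1.09) lower among the regulators (median −0.02). Of all genes, 8.26% were called in S619L/+ tamoxifen against placebo. No gene of the 5 lists was called in the interaction.

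S619L/+ tamoxifen against WT placebo, where *Tnni2*, *Tnnc2*, *Tnnt3* and *Tpm1* were called lower, also gave 8 of 12 fast fiber genes lower and 0 higher (median −0.68 against 0.01 for all genes), with *Myh4* (−1.28) and *Mylk2* (−0.68) at the smallest adjusted p. Of the slow fiber genes, *Atp2a2* (0.86) and *Myh7* (2.39) were called higher and 0 lower (median 0.24). The thin filament list gave 2 higher and 5 lower (median −0.12), led by *Actc1* (−3.09) and *Tmod4* (−0.56). The developmental list gave 6 of 9 higher (median 1.57), led by *Myog* (2.31) and *Ncam1* (2.33), and the regulators 4 higher and 2 lower (median −0.16), led by *Nfatc2* (0.88) and *Hdac4* (0.83). Against WT on tamoxifen, 0 slow and 0 fast fiber genes were called with edgeR beside *Tnni1* (medians 0.49 and −0.23 against −0.03 for all genes). There *Klhl40* (1.27) was called in the thin filament (median 0.17), 4 of 9 developmental genes were called higher (median 1.17), led by *Chrna1* (2.46) and *Myog* (3.02), and 3 of 20 regulators (median 0.09), led by *Hdac4* (0.97) and *Nfatc2* (0.65). Of all genes, 15.8% were called higher and 13.1% lower against WT placebo, and 2.18% higher against WT on tamoxifen.

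The fast fiber list of the Bin1 cohort held calls where the members were not. Knockout against WT on placebo gave 5 of 12 lower, *Pvalb* (−1.12), *Actn3* (−1.05), *Mylk2* (−1.02), *Mybpc2* (−0.97) and *Casq1* (−0.87) (median −0.82 against 0.01 for all genes). Of the fast members in that comparison, *Tpm1* (−0.73) was nearest to these values, and *Tnni2* (−0.27), *Tnnc2* (−0.36) and *Tnnt3* (−0.40) were smaller. Of the slow fiber genes 1 was called, *Myl3* (−1.60), lower as in S619L/+ (median −0.07). *Klhl40* (1.11) was the 1 thin filament gene called (median −0.09), *Myog* (2.27) and *Ncam1* (1.98) the 2 developmental genes (median 0.90), and *Tead4* (1.58) the 1 regulator (median 0.01). Tamoxifen against placebo in the knockout gave 4 of 12 fast fiber genes higher, *Pvalb* (1.33), *Mylk2* (1.21), *Actn3* (1.05) and *Mybpc2* (0.99) (median 0.70 against 0.00). It gave 0 slow fiber genes with edgeR (median −0.15), and *Klhl40* (−0.85), *Chrna1* (−1.19) and *Tead4* (−1.70) lower, 1 in each of the thin filament (median 0.12), developmental (median −1.02) and regulator lists (median −0.05). Knockout tamoxifen against WT called *Myl3* (−1.27) and *Myh2* (−1.88) lower and no gene of the other 3 lists (medians −0.49 for slow fiber, 0.10 for fast fiber, 0.00 for thin filament, 0.79 for developmental genes and −0.05 for regulators, against 0.03 for all genes). The shares of all genes called in these comparisons of the Bin1 cohort were 2.61%, 3.13% and 0.849%, in the order given.

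Markers of other cells were called in the same comparisons. In S619L/+ against WT on placebo, 2 of the 4 leukocyte markers tested were called higher, with sums of 11.5 to 75.4 CPM against 6.64 to 13.5 CPM (most abundant *Cd68*, up to 1 of 5 at 0). Endothelial markers were called lower in 4 of 5, at 160.5 to 433 against 350.1 to 671 CPM (*Cdh5*), and satellite cell markers in 2 of 3, at 1.34 to 2.84 against 6.64 to 8.996 CPM (*Myf5* and *Pax7*, up to 1 of 3 at 0). Smooth muscle markers were called lower in 2 of 5 (*Smtn* most abundant, 202 to 302 against 328 to 384 CPM) and tendon markers higher in 3 of 5 (*Thbs4*, 256 to 485 against 47.4 to 242 CPM). Erythroid markers were called lower in 1 of 3 (*Hbb-bs*, 273 to 668 against 298 to 1215 CPM). No fibroblast, bone or fat marker was called by edgeR in that comparison, with fat sums of 3.12 to 59.0 against 3.93 to 36.6 CPM (*Adipoq*) and fibroblast sums of 1588 to 2251 against 891 to 1213 CPM (*Col3a1*). The knockout on placebo had 4 of 4 leukocyte markers tested higher (22.3 to 45.0 against 5.03 to 7.67 CPM), 2 of 3 fat markers tested higher (5.76 to 19.8 against 0.640 to 1.70 CPM, *Cidec*), 1 of 5 smooth muscle markers higher (*Cnn1*) and 2 of 3 satellite cell markers lower (1.89 to 4.33 against 6.78 to 7.89 CPM). None of the 5 fibroblast markers was called there, and their sums did not overlap (1648 to 4092 against 770.3 to 984 CPM). For WT tamoxifen against placebo, where *Tnnc2* and *Tpm2* were called lower, 5 of 5 tendon and 3 of 4 leukocyte markers were called higher beside the bone and fibroblast lists, with fibroblast sums of 9077 to 17728 CPM, tendon sums of 708 to 1648 CPM (*Fmod*) and leukocyte sums of 27.8 to 64.8 CPM. There 1 of 5 smooth muscle markers (*Cnn1*) was called lower. S619L/+ tamoxifen against WT placebo, where *Tnni1* was called higher and *Tnni2*, *Tnnc2*, *Tnnt3* and *Tpm1* lower, gave 5 of 5 bone and 5 of 5 fibroblast markers higher (1979 to 13663 CPM for fibroblast sums), with 4 of 5 tendon (116 to 809 CPM) and 3 of 4 leukocyte markers (15.4 to 42.6 CPM). Lower there were 2 of 3 satellite cell (2.19 to 3.83 CPM), 1 of 5 endothelial and 1 of 5 smooth muscle markers. Against WT on tamoxifen, where only *Tnni1* was called, 1 of 3 satellite cell markers was lower (*Calcr*, −2.27) and no marker of the other lists was called by edgeR. Tamoxifen against placebo called *Calcr* higher in S619L/+ and in knockout mice, and *Cnn1* and *Plin1*, a fat marker, lower in knockout mice. Shares of all genes called were 12.1% higher and 9.81% lower in S619L/+ against WT on placebo, and 27.7% in WT tamoxifen against placebo. They were 15.8% higher and 13.1% lower in S619L/+ tamoxifen against WT placebo, and 2.61% in knockout against WT on placebo. Tamoxifen against placebo called 8.26% in S619L/+ and 3.13% in the knockout. Marker counts such as 1 of 5 or 1 of 3 are too small to set against these shares. The part of these cells in the members' values was not tested.

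By position, *Tnni1* (chr1:135779434-135810989) and *Tnnt2* (chr1:135836354-135852260) lie close together with *Lad1* between them, as do *Tnni2* (chr7:142441808-142444410) and *Tnnt3* (chr7:142498836-142516009) with *Lsp1* between them, all 4 members on the plus strand of GRCm38 in GENCODE M21. *Tnnt1* also lies on chromosome 7, far from that pair, and *Tnnc1*, *Tnnc2*, *Tpm1*, *Tpm2* and *Tpm3* lie on chromosomes 14, 2, 9, 4 and 3. RefSeq promoters of GRCm38.p6, from 250 bases before to 50 after a transcript's start, were found for 8 of the 10 members, and not for *Tnni2* and *Tnnt3*. The first listed promoter is shown for the 4 genes called higher together in S619L/+ placebo mice and for *Tpm1*, called lower there. Capitals mark matches, on either strand, of the E-box CANNTG, the MCAT motif CATTCC and the TATA motif TATAAA, with no gap allowed and overlapping matches marked as 1 run. Over 32851 promoters of this length, 72.3% hold the E-box, 14.7% the MCAT motif and 13.6% the TATA motif. MEF2 and CArG motifs, held by 1.86% and 1.63% of all promoters, were searched too and had 0 matches in the 8 members' windows. *Tnni1* (chr1:135799171-135799470, plus strand) holds 4 E-boxes, *Tnnc1* (chr14:31208062-31208361, plus strand) 2 and 1 MCAT motif, *Tnnt1* (chr7:4515926-4516225, minus strand) 2 and 1 TATA motif, and *Tnnt2* (chr1:135836084-135836383, plus strand) 5 and 1 MCAT motif. *Tpm1* (chr9:67049164-67049463, minus strand) holds 1 E-box and 1 MCAT motif. A match describes letters in the window and is not a site.
Tnni1: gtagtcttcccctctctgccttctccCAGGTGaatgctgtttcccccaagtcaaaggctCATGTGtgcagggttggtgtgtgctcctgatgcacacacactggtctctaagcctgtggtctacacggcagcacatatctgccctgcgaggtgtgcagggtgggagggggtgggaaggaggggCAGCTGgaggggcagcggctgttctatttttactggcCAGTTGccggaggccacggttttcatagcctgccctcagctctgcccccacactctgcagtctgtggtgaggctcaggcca
Tnnc1: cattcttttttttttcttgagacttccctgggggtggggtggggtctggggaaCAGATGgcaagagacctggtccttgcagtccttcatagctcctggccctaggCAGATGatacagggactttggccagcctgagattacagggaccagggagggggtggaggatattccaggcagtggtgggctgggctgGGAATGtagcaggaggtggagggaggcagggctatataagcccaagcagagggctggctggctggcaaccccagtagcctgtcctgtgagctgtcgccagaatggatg
Tnnt1: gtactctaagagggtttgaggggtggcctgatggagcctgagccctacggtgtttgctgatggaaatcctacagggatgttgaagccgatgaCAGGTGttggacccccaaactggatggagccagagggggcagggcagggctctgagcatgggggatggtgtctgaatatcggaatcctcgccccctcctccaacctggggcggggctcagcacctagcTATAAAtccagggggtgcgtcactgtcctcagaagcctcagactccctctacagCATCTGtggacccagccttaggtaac
Tnnt2: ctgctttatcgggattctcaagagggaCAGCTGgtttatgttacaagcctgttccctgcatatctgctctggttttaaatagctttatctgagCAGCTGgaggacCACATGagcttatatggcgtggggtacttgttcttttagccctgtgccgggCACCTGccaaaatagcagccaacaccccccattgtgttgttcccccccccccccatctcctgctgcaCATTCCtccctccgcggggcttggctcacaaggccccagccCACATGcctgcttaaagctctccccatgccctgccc
Tpm1: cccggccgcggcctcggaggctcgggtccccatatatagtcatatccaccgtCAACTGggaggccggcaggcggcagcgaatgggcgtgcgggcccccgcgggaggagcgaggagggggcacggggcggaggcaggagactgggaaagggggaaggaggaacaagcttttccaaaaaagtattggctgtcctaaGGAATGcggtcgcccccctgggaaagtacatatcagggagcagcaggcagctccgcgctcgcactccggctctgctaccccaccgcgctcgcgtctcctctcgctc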

How the data were processed

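The authors deposited raw counts of reads per Ensembl gene, 1 column per mouse and 1 table per cohort. The submitters' notes give bcl2fastq 2.20.0.422, cutadapt 1.10, Bowtie 1.2.2, STAR 2.5.3, HTSeq 0.6.1p1 and mm39. In all, 4 lines of the Bin1 table name no gene (22.0 to 30.8% of a mouse's counts, median 23.9%) and were left out. Identifiers were named with GENCODE M21 (GRCm38), which held 52083 of them, and coordinates were not joined. Each cohort was fitted by itself in R 4.3.3 with edgeR 4.0.16 (TMM, default filter, robust quasi-likelihood test). Benjamini-Hochberg adjustment ran over all genes tested, and calls are at 0.05. Slow to fast ratios added 0.5 to each count and used exact two-sided permutation tests of group means. Members, the 5 context lists and the 11 marker lists were chosen with earlier results of these data known. All members are named, and the called list genes with the 2 smallest adjusted p per list and comparison, with others where a count is accounted for. Alternatives were DESeq2 1.42.0, RLE factors, library size alone, library sizes without mitochondrial genes, other filters, fits of only the groups compared, a replicate block, an *Xist* covariate, another pseudocount, shares in place of ratios, and each mouse left out. Library sizes without mitochondrial genes were scaled by TMM again, so that setting could hardly differ (90 of 90 member values kept sign and call). A mouse outside the groups compared acts only through the shared fit. The scripts were tested on simulated data.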

Additional observations from a re-analysis of the deposited data

Results flagged for a closer look

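In 5 of 105 groups of 4 mice looked at (70 of gene levels, 28 of ratios and 7 of bone marker sums), 1 mouse lay far from the other 3, past Dixon's critical value for the gap to the nearest mouse over the group's range. Chance alone gives about 1 in 20 groups. *Tnnt3* in WT placebo of the Dnm2 cohort was lowest in replicate 4, at 17100 CPM against 20985 to 21396 CPM. *Tnnc1* in knockout tamoxifen was highest in replicate 3, at 21.4 CPM against 7.71 to 9.09 CPM. *Tnnt2* in knockout tamoxifen was highest in replicate 4, at 6.54 CPM against 3.33 to 3.57 CPM. *Tpm1* in WT placebo of the Bin1 cohort was lowest in replicate 5, at 10466 CPM against 14161 to 14805 CPM. The bone marker sum in knockout tamoxifen was highest in replicate 2, at 493 CPM against 0.0365 to 1.70 CPM.

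*Tnnt3* was flagged because its treated and placebo mice were fully apart in opposite directions in WT and in the knockout. All 4 treated WT mice lay below all placebo WT mice (log2 fold change −0.39) and all 4 treated knockout mice above all placebo knockout mice (0.62). In S619L/+ mice, whose groups overlap, it was −0.12. The other fast genes had the same signs in WT and in the knockout, *Tnni2* at −0.41 and 0.53, *Tnnc2* at −0.49 and 0.59, *Tpm1* at −0.38 and 0.99 and *Tpm2* at −0.48 and 0.12, each with overlap of treated and placebo mice in at least 1 of the 2. With library size alone the *Tnnt3* values were −0.102 and 0.44. Treated and placebo WT mice then overlap, with means of 16067 and 17242 CPM, so they are fully apart only with TMM. Neither *Tnnt3* difference was called in the main fit, the cohorts differ in protocol, and the difference between them was not tested.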

How the results depend on the processing

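Counts of members called are out of 10. Calls over all genes moved with the settings too. With the *Xist* covariate they went from 4461 to 3267 for S619L/+ tamoxifen against WT placebo. For S619L/+ against WT they went from 3383 to 3607 on placebo and from 417 to 469 on tamoxifen. For WT tamoxifen against placebo, the count of 2 became 4 with RLE factors, with the *Xist* covariate, with only the groups compared and with DESeq2, and 1 with library size alone. For S619L/+ against WT on tamoxifen, the count of 1 became 0 without a filter on low counts, with the replicate block and with the *Xist* covariate. With only the groups compared it stayed 1, with *Tnnt1* in place of *Tnni1*. For S619L/+ tamoxifen against WT placebo, 5 (1 higher and 4 lower) became 2 with the *Xist* covariate, 6 with DESeq2, and 4 higher and 1 lower with library size alone. With only the groups compared, *Tnni2* was not called there, and *Tnnt1* and *Tpm3* were. For S619L/+ against WT on placebo, 5 became 6 with DESeq2, and *Tnnt3* was also called with the *Xist* covariate. Library size alone called *Tpm3* there and not *Tpm1*. For knockout against WT on placebo, 0 became 1 without the filter, 2 with only the groups compared and 4 with DESeq2. For tamoxifen against placebo in the knockout, 0 became 1 without the filter, 1 with the study's filter rule (over 10 reads in 90% of mice) and 4 with DESeq2. That rule was applied within a cohort here, and over the samples of all its cohorts in the study. The cause was not tested in any of these. Library size alone and the *Xist* covariate were chosen after the data were seen.

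With each mouse left out in turn, the count ran from 3 to 6 for S619L/+ against WT on placebo, 1 to 4 for WT tamoxifen against placebo, 2 to 7 for S619L/+ tamoxifen against WT placebo, 0 to 1 for S619L/+ against WT on tamoxifen, 0 to 2 for knockout against WT on placebo and 0 to 4 for tamoxifen against placebo in the knockout. It was 0 throughout with edgeR for S619L/+ tamoxifen against placebo, the interaction and knockout tamoxifen against WT. Calls over all genes moved too. For S619L/+ against WT on placebo they were 3383 in the main fit, 2034 without WT placebo replicate 2 and 3952 without S619L/+ tamoxifen replicate 4. For S619L/+ tamoxifen against WT placebo they were 4461 in the main fit, and 2954 and 5496 without S619L/+ tamoxifen replicates 3 and 4. Of the 32 ratio differences, 4 took both signs, and none of these had an exact p at the smallest value in the full data: troponin I for WT tamoxifen against placebo (−0.11 to 0.67) and for S619L/+ tamoxifen against placebo (−1.03 to 0.0129), and tropomyosin for S619L/+ tamoxifen against placebo (−0.0379 to 0.40) and knockout tamoxifen against WT (−0.12 to 0.40). The 32 ratios kept their direction with a pseudocount of 2 and with shares in percent, and in both the same 11 had an exact p under 0.05 before adjustment. The 24 ratios with a replicate block, which knockout against WT does not have, kept their direction too, but 0 of them had such a p, which sign flips of at most 4 pairs cannot reach. No adjusted p was under 0.05 in the full data or in these settings, so the labels in the sensitivity table, which read adjusted p, could hardly differ. With 1 mouse left out, 8 of the 11 went above 0.05 before adjustment, where p moves in coarse steps. With 1 mouse left out, 13 of the 90 member values took both signs, none of them called. No called value changed sign in any setting.

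Library size alone moved the split of all genes: of those called, the share higher was 55.2% with TMM and 91.1% with library size alone for S619L/+ against WT on placebo, 57.1% and 92.0% for WT tamoxifen against placebo, 54.6% and 93.2% for S619L/+ tamoxifen against WT placebo, and 48.5% and 21.0% for tamoxifen against placebo in the knockout. Mice with the same replicate number were no more alike than others (mean r 0.00801 over 24 pairs in the Dnm2 cohort, −0.0314 over 4 pairs in the knockout groups), so the numbers are not read as pairs. With the replicate block the counts were 4, 2, 0, 4 and 0 for S619L/+ against WT on placebo, WT tamoxifen, S619L/+ tamoxifen against placebo, S619L/+ tamoxifen against WT placebo and tamoxifen against placebo in the knockout, and the calls not made with it were *Tpm1* in the first, *Tnni2* in the fourth and *Tnni1* in S619L/+ against WT on tamoxifen. With 4 mice per group, strand use in counting, isoforms and sex not given, small differences of the fast genes and effects on single isoforms were not resolved.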
